A study of Mus musculus with 27 samples.

Results

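The guanylate-binding proteins (GBPs) and the HIN-200 proteins are families of mouse proteins whose genes are switched on by interferons. In all, 9 named genes were followed here: 6 GBP genes (Gbp2, Gbp2b, Gbp3, Gbp5, Gbp6 and Gbp7) and 3 HIN-200 genes (Ifi202b, Ifi203 and Ifi204). They were chosen because most of them are lower on the arrays when doxycycline (DOX) is given, so their DOX differences are described below without a test. Probes were matched to genes through the RefSeq accession printed with each probe, and 8 of the 9 genes had a probe, among 37208 genes or transcripts measured. Ifi203 was matched by no probe, and no level can be given for it.

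All arrays carry RNA from the same kind of cells, mouse A2lox embryonic stem cells (ESCs) with a DOX-inducible, Flag-tagged dominant-negative FOS (dnFOS) placed at the Hprt locus. dnFOS pairs with JUN proteins and keeps the AP-1 transcription factor from binding DNA. The ESCs were grown on mouse embryonic feeder cells and differentiated as embryoid bodies for 3.75 days, and FLK1+ cells, the hemangioblast-containing mesoderm, were purified with magnetic beads and put into blast culture with or without 1 µg/ml DOX. Untreated FLK1+ cells form 1 group. The other 12 groups are 6 populations without and with DOX: blast culture after 5 h (FLK1+ 5h), with DOX for 5 h; whole blast culture at day 1 (d1 BC), with DOX for 1 day; and 4 populations sorted at day 2, with DOX for 2 days, namely smooth muscle (SM), early hemogenic endothelium (HE1, KIT+ TIE2+ CD41-), late hemogenic endothelium (HE2, KIT+ TIE2+ CD41+) and hematopoietic progenitors (HP, KIT+ TIE2- CD41+). Untreated cells carry the transgene too, so every comparison within a population is of DOX together with dnFOS, and arrays of cells given DOX without the transgene were not analysed here. There were 3 arrays of untreated SM and 2 of every other group, 27 in all. The labels do not say whether replicates were separate differentiations, so errors and p-values measure the spread between these samples, which may be technical.

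Interferons signal through receptors at the cell surface and the JAK kinases to STAT and IRF transcription factors. Targets of type I interferons mainly carry the interferon-stimulated response element (ISRE), and many targets of interferon gamma carry the gamma-activated sequence (GAS). GBPs are large GTPases of the dynamin superfamily that assemble on vacuoles and bacteria inside infected cells. HIN-200 proteins carry a DNA-binding HIN domain, and most also carry a pyrin domain through which they assemble with other proteins. Ifi204 encodes a HIN-200 protein known as a sensor of cytosolic DNA and as a factor in differentiation, while the Ifi202b product lacks the pyrin domain and restrains the AIM2 inflammasome. Most of the GBP genes studied lie side by side on chromosome 3. In the RefSeq annotation of GRCm38.p6, Gbp5, Gbp7 and Gbp3 followed each other with no gene between them, 1 gene separated Gbp3 from Gbp2b, and Gbp2b was next to Gbp2. Gbp6 lies on chromosome 5, and the HIN-200 genes lie on chromosome 1, where Ifi203 was next to Ifi202b and 4 genes separated it from Ifi204.

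The start regions of the members were read for 3 motifs, because these letters are what interferon-activated factors and AP-1 are known to bind. The motifs were the ISRE core (GAAA, 2 bases of any kind, GAAA), the GAS core TTCNNNGAA and the AP-1 site TGAGTCA. Each was read on either strand within the 250 bases before the annotated transcript start. Of the 9 genes, 7 had such a window in the RefSeq promoter table (GRCm38.p6), and Gbp6 and Ifi204 had none. The first window of 5 of 5 GBP genes held the ISRE core, against 2.98% of all 32851 windows. The GAS core was found in 2 of these 5, Gbp5 and Gbp7, and in Ifi202b, against 7.02% of all windows. The AP-1 site was found in Gbp2 and in no other first window of the members, against 4.46% of all windows, and 0.119% of all windows held both it and the ISRE core. Neither first window of the HIN-200 genes held the ISRE core, and the second annotated start of Ifi203 had 1 match. A match is a run of letters, and whether a factor binds there was not measured on these arrays.

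**Figure D1:**
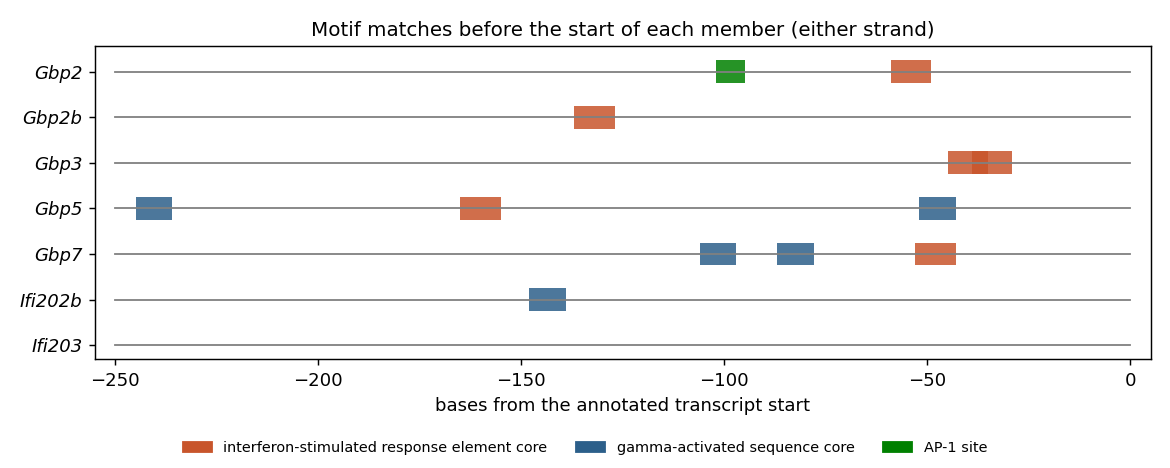
Motif matches in the 250 bases before the annotated start of 7 members. The x axis gives bases from the start, each line is 1 gene, and coloured boxes are matches on either strand to the interferon-stimulated response element core, the gamma-activated sequence core and the AP-1 site. The 5 Gbp genes each hold at least 1 response element core, between 165 and 39 bases before the start, and only Gbp2 holds an AP-1 site.

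The sequences below are the 250 bases before the start on the strand of the gene, 5′ to 3′, from RefSeq for GRCm38.p6, with matches to the ISRE core and to TGAGTCA on either strand in capitals. They are the 5 GBP genes and the 1 HIN-200 gene that have both a window and a probe, so that their matches can be read beside the levels that follow.
Gbp2 (chr3:142620413-142620662, plus strand): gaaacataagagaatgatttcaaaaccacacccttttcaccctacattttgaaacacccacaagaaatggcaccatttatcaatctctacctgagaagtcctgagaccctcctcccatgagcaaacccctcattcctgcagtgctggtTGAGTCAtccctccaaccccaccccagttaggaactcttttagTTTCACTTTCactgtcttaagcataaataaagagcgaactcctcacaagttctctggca
Gbp2b (chr3:142594597-142594846, plus strand): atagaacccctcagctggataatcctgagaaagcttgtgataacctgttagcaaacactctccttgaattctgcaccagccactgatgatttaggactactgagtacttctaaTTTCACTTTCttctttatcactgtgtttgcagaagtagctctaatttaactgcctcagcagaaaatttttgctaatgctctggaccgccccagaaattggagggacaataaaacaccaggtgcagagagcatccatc
Gbp3 (chr3:142559794-142560043, plus strand): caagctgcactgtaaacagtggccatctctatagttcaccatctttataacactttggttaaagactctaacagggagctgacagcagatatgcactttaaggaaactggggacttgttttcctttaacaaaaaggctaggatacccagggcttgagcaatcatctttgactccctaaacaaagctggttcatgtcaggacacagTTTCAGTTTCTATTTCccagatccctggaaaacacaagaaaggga
Gbp5 (chr3:142496684-142496933, plus strand): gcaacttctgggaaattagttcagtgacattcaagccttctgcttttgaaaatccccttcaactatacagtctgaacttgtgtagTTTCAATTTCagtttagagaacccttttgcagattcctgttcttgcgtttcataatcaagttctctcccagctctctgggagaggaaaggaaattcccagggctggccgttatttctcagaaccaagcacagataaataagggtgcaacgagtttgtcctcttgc
Gbp7 (chr3:142530086-142530335, plus strand): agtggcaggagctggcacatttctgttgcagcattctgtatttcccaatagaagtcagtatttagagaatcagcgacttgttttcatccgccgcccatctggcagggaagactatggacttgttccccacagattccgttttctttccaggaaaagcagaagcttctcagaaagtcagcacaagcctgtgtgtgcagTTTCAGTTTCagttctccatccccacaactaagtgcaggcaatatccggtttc
Ifi202b (chr1:173982845-173983094, minus strand): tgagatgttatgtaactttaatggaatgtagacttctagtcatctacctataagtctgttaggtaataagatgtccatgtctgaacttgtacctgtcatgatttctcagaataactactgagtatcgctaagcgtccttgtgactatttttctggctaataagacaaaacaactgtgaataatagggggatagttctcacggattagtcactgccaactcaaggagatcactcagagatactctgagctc
The ISRE core of Gbp3 and Gbp7 began 45 and 53 bases before the start, that of Gbp2 59 bases, and those of Gbp2b and Gbp5 137 and 165 bases before it. The Gbp3 window held a second match, 39 bases before the start, that overlapped the first. In Gbp2 the AP-1 site began 102 bases before the start, upstream of the ISRE core.

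The arrays were single-colour Agilent arrays with 62976 spots. Arrays differed in brightness, with 75th percentiles of the signal from 73.2 to 638.8, between 46.9% and 89.6% of the probes were above background on an array, and no pair of arrays held identical values. Levels are given as log2 of the signal relative to the 75th percentile of the array, so that 0 is the signal that 75% of the probes do not exceed, and a level of one gene cannot be set against that of another. The Hprt signal, at the locus that holds the transgene, was higher with DOX by 1.4 on the log2 scale at 5h and by 2.12 to 3.63 in the other 5 populations, and no DOX array reached down to an untreated one. Endothelial markers (5 of 6) were highest in HE1 among untreated populations, blood progenitor markers (4 of 5) and myeloid markers (9 of 10) in HP, and of the 6 smooth muscle markers 2 each were highest in SM, d1 BC and FLK1+ 5h. The arrays lay on 5 slides, and 11 pairs of a DOX and an untreated array of one population shared a slide and a replicate number.

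Among untreated populations most of the measured members fell into 2 patterns by their means. Gbp2, Gbp2b and Gbp3 were at their highest in whole blast culture or SM, whereas Gbp7, Ifi202b and Ifi204 were at their highest in HP. The HP arrays of Gbp7 overlapped those of the other sorted populations. Gbp5 and Gbp6 were in neither pattern, with their highest means in HE1. For Gbp2b, a large GTPase also called Gbp1, the untreated levels were -1.02 and -0.46 in FLK1+ cells, 3.7 and 2.58 at 5h, and 1.87 and 1.61 in d1 BC. After the sort they were -0.8 and -0.4 in HP, 1.42, 0.4 and 1.58 in SM, -1.67 and -2.13 in HE2 and -2.1 and -1.79 in HE1. Its 5h arrays thus lay above all others, d1 BC lay above SM, and the arrays of HP and FLK1+ cells, and of HE2 and HE1, overlapped. Gbp2 followed with means of 4.03 (SD 0.34) at 5h and 3.31 (SD 0.04) in d1 BC, against 1.83 in FLK1+ cells, 0.25 in HE1, 0.06 in HP and -1.28 in HE2. SM could not be placed in that order, since its 3 arrays read 8.41, 1.74 and 2.68. SM replicate 1 therefore stood apart for Gbp2, and only 11 of the 28317 genes in the fit exceeded the other untreated SM arrays by as much or more on that array. Untreated Gbp3 had means of 1.3 in d1 BC, 1.2 at 5h and 1.19 in SM, which overlapped, and lay 1.46 lower in HE1, the next in order.

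Gbp7 was low before the sort and higher in all 4 sorted populations. Its untreated arrays read -6.58 and -5.65 in FLK1+ cells, -4.55 and -5.16 at 5h, and -3.78 and -5.63 in d1 BC. They read 0.27 and -1.79 in HP, -1.67 and -0.94 in HE2, -2.09, -0.84 and -1.84 in SM, and -2.13 and -1.27 in HE1. Neighbours in the order overlapped among the sorted populations, and a gap of 3 separated the lowest mean of these, in HE1, from that in d1 BC. Ifi202b had untreated means of 0.69 (SD 0.31) in HP and -1.45 (SD 0.35) in SM, above background on all 5 of these arrays, with HP above SM on every array. Below these came HE2 (-2.91, SD 0.01), HE1 (-3.59, SD 0.25) and d1 BC (-4.1, SD 0.99), each above background on 1 of 2 arrays, so their order ranks signals near background. Ifi204 was highest in HP (-1.43 and -1.72), and was above background on 6 of 27 arrays, all of them untreated sorted cells. Gbp5 (above background on 16 arrays) and Gbp6 (26 arrays) had overlapping arrays between neighbours in their order, except that both HE1 arrays of Gbp6 (-0.39 and -1.25) were above all SM arrays, the next by mean. A single HE2 array of Gbp6 (-0.13) was higher still.

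**Figure D2:**
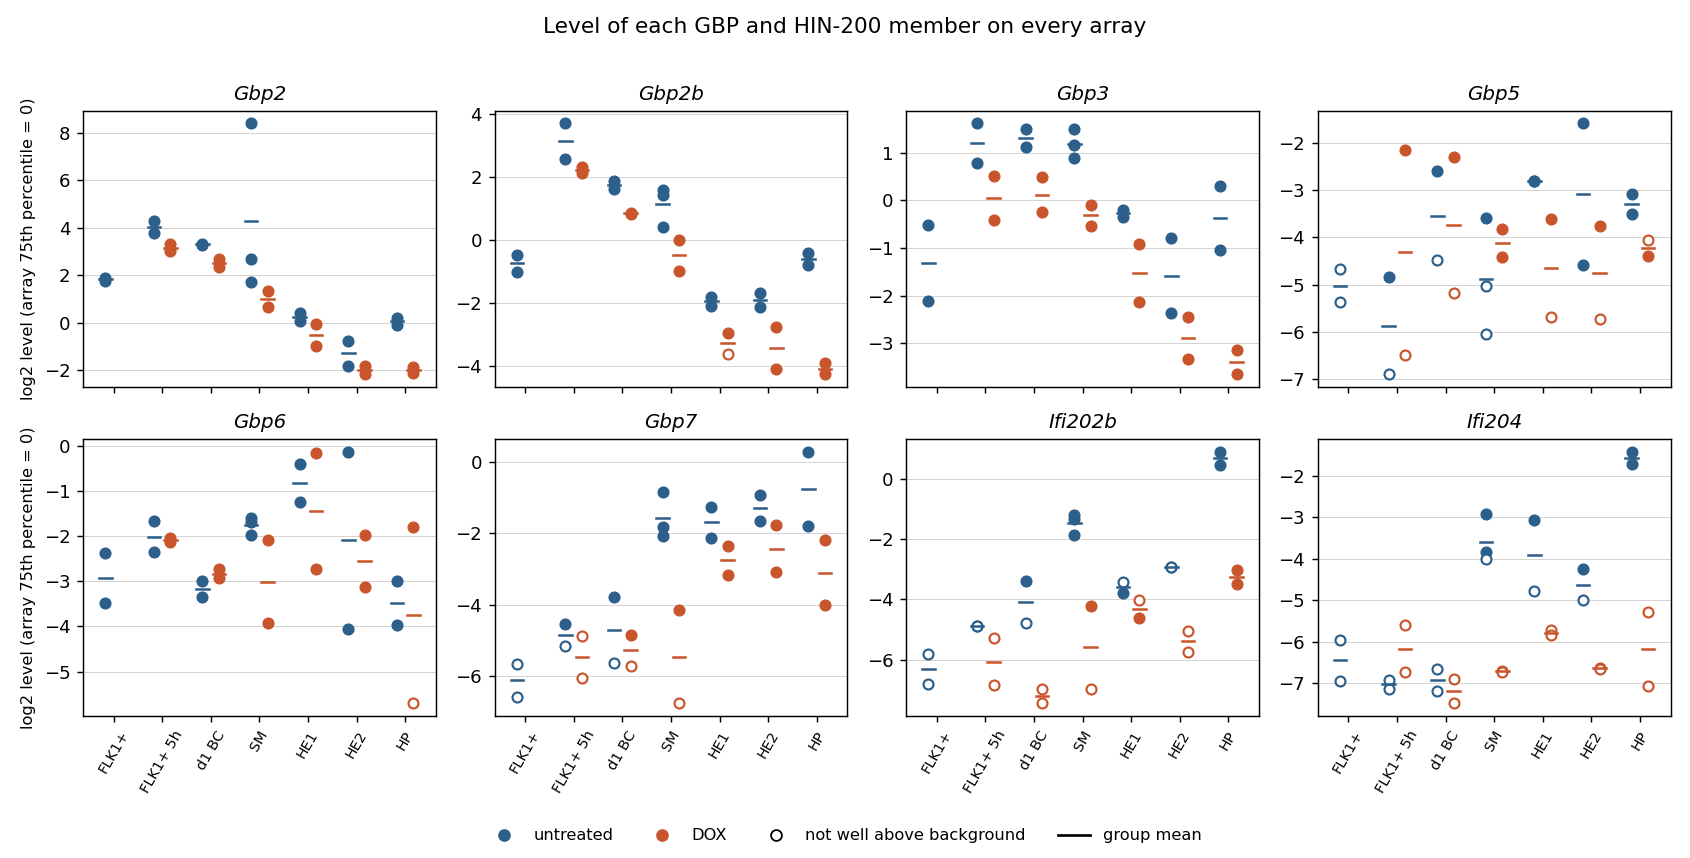
Level of the 8 measured members on every array, 1 panel per gene. The x axis gives the 7 populations and the y axis the log2 signal relative to the 75th percentile of the array; blue points are untreated and red points DOX arrays, open points are not well above background, and bars are group means. By untreated means Gbp2, Gbp2b and Gbp3 are highest in blast culture or SM, and Gbp7, Ifi202b and Ifi204 in HP, where Gbp7 overlaps the other sorted populations. The single high Gbp2 point in SM is the array at 8.41.

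With DOX, the members were lowest against untreated cells in HP and SM. In HP, Gbp2b read -0.8 and -0.4 without and -3.91 and -4.26 with DOX. Both DOX arrays lay far below both untreated arrays, a log2 difference of -3.49 (SE 0.54) or 11.2-fold. Gbp3, a GTPase encoded nearby on the same chromosome, read -1.03 and 0.3 without and -3.65 and -3.13 with DOX, a difference of -3.03 (SE 0.66). For Gbp2 the arrays were -0.09 and 0.22 against -2.1 and -1.86, a smaller difference of -2.04 (SE 1.27). In the same cells Gbp7 read 0.27 and -1.79 without and -2.2 and -4.02 with DOX, so the arrays did not overlap, although the untreated arrays differed among themselves (SD 1.46).

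The HIN-200 genes were lower with DOX in HP too. Ifi202b read 0.47 and 0.91 without and -3.01 and -3.49 with DOX, a log2 difference of -3.94 (SE 0.72) or 15.4-fold. Ifi204 read -1.43 and -1.72 without DOX, and -5.29 and -7.06 with DOX, where it was not well above background. It was at least 7.77-fold lower on this scale, taken against the dimmest signal well above background on the DOX arrays. Gbp5, a GBP tied to inflammasome assembly, differed by only -0.93 (SE 1.31), and the Gbp6 arrays of HP overlapped. With another background correction (normexp) the HP differences were smaller, -1.45 for Gbp2b, -1.65 for Gbp3, -1.15 for Gbp7, -2.5 for Ifi202b and -1.23 for Ifi204. With the authors' log2 values the Ifi204 difference was -2.25. Both Ifi204 values were smaller than the bound given above.

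In HP cells 7 of the 8 members had both DOX arrays below both untreated arrays, as did 12.5% of all 25099 genes tested. At least 2-fold lower were 6 members and 7.27% of all genes. The median log2 difference was -2.69 over the 8 members and 0.25 over all genes tested. These shares are given for scale only, because the members were chosen on this contrast. Myeloid markers moved with the members in HP, where 8 of 10 were lower with DOX, all 8 with no overlap, and their median was -2.1. The summed level of these markers, in units of the 75th percentile, was 151 to 165 without and 121 to 161 with DOX, and each of the 10 was above background on some HP array. Other markers moved too. Of 5 erythroid markers tested in HP 0 were lower (median 0.84). Endothelial markers were lower in 3 of 6 (median -0.48), with sums of 47.2 to 57.1 without and 62.5 to 74.8 with DOX. Their part in the differences was not tested, and in these bulk samples fewer cells of a type and less RNA per cell cannot be told apart.

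In SM cells 7 of the 8 members had lower means with DOX. Ifi202b read -1.33, -1.85 and -1.18 without DOX and -4.21 and -6.97 with DOX, the last not above background. All DOX arrays lay below all untreated arrays, by a measured log2 difference of -4.14 (SE 0.66), which rests in part on that dim array and was -2.76 without it. Gbp7 behaved likewise, with -2.09, -0.84 and -1.84 against -4.15 and -6.75, the last not above background, and a difference of -3.86 (SE 0.83), or -2.56 without that array. After normexp the SM differences were -1.59 for Ifi202b and -1.53 for Gbp7, and with the authors' log2 values -1.72 and -1.79. Ifi204 read -3.85, -2.93 and -4.01 without DOX, the last not above background, and was not above background with DOX, at least 2.32-fold lower on this scale. After normexp the Ifi204 difference was -0.92 and with the authors' values -0.68, both smaller than that bound. Among the chromosome 3 neighbours, Gbp2b read 1.42, 0.4 and 1.58 against -0.01 and -0.97, a difference of -1.62 (SE 0.5). Gbp3 read 1.49, 1.17 and 0.9 against -0.54 and -0.09, a difference of -1.5 (SE 0.6). The Gbp2 difference of -3.27 (SE 1.16) rested on SM replicate 1, and was -1.21 without that array, with 1.74 and 2.68 against 1.33 and 0.68 for the arrays that remained. Gbp5 was the exception, with overlapping arrays and a mean 0.77 higher with DOX.

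Over the 8 members in SM, 7 had no overlap and lay lower with DOX (6.15% of the 23807 genes tested), and 7 were at least 2-fold lower (7.06%). Their median was -2.37, against 0.09 over all genes, and was -1.42 without SM replicate 1. Other cell type markers moved with them. Of 7 myeloid markers tested in SM 4 were lower, with summed levels of 21.8 to 40.1 without and 12.3 to 14.4 with DOX, and Spi1 was above background on no SM array. All 6 erythroid markers had lower means with DOX (median -1.29), although none was free of overlap, and their summed level was 65.5 to 409 without and 56.4 to 167 with DOX. Of the 6 fibroblast feeder markers 3 were lower (median -0.09), with summed levels of 151 to 167 without and 89.3 to 126 with DOX. Smooth muscle markers, which define this population, had lower means in 5 of 6 (median -1.1), with summed levels of 943 to 1960 without and 727 to 1490 with DOX. Their part in the differences was not tested.

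In HE1 and HE2 the measured members had lower means with DOX, by less than in HP for all but Gbp5 and Gbp6. In HE2 this rested on untreated replicate 1 for Gbp6, whose difference of -0.45 was 1.51 without that array, and largely so for Gbp5 (-1.65, or -0.15 without it). In HE1 Gbp2b read -2.1 and -1.79 without and -3.6 and -2.95 with DOX, a difference of -1.33 (SE 0.54), or -0.62 after normexp and -0.58 with the authors' values. In HE2 it read -1.67 and -2.13 against -4.08 and -2.77, a difference of -1.52 (SE 0.54), or -0.72 after normexp and -0.67 with the authors' values. The HE2 difference was -0.87 without DOX replicate 1 and -2.18 without DOX replicate 2. Gbp2 differed by -0.77 (SE 1.27) in HE1 and -0.71 (SE 1.27) in HE2, and in HE2 the nearest DOX and untreated arrays were 0.02 apart. The HIN-200 genes in HE2 were dim already without DOX. Ifi202b read -2.91 on both untreated arrays, above background on 1 of them, and was not above background on the DOX arrays, at least 2.94-fold lower on this scale. Its HE2 difference was smaller than that after normexp (-0.76), with the authors' values (-0.85) and by its second probe (-0.52). Ifi204 was above background on 1 of 2 untreated arrays in each of HE1 and HE2 and on no DOX array, and was at least 1.29-fold lower in HE1. No overlap and lower with DOX were 7 members in HE1 (8.38% of all genes tested) and 6 in HE2 (14.4%), with medians of -1.16 and -1.42 against 0.09 and 0.17 over all genes. At least 2-fold lower were 5 members in HE1 (4.94%) and 6 in HE2 (17.1%). In HE2, 9 of 10 myeloid markers were lower too (median -1.57, summed levels of 52.5 to 146 without and 63.7 to 81 with DOX), and in HE1 5 of 7 (median -0.24, summed levels of 51.4 to 74.3 without and 32 to 54.1 with DOX, Spi1 and Fcgr3 above background on no array). The summed fibroblast feeder level in HE1 was 45.4 to 75.1 without and 23.3 to 35.9 with DOX, although 2 of 6 of these markers had lower means (median 0.58). Its brightest marker, Col1a2, had means of 5.45 without and 4.29 with DOX. Smooth muscle markers in HE1 had lower means in 4 of 6 (median -0.56), with sums of 248 to 570 without and 331 to 409 with DOX. The part of any of these was not tested.

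Before the sort Gbp2, Gbp2b and Gbp3 had lower means with DOX at both times. At 5h, the earliest time after induction, Gbp2 read 4.28 and 3.79 without and 3.04 and 3.31 with DOX, and Gbp2b 3.7 and 2.58 against 2.31 and 2.12. Gbp3 read 1.62 and 0.78 against -0.4 and 0.51. For none of the 3 genes did the arrays overlap, and the differences were -0.86 (SE 1.27), -0.92 (SE 0.54) and -1.14 (SE 0.66). FLK1+ 5h untreated replicate 1 was alone on its slide and held the highest level of each of these genes at 5h. Within the 1 slide that held both treatments the differences were -0.48, -0.46 and -0.26. In d1 BC the same genes read 3.33 and 3.28 against 2.34 and 2.71 (Gbp2), 1.87 and 1.61 against 0.87 and 0.84 (Gbp2b), and 1.12 and 1.49 against -0.25 and 0.5 (Gbp3). Ifi202b, above background on 1 untreated and no DOX array of d1 BC, was at least 1.91-fold lower there on this scale, with a measured difference of -3.11, or -0.14 after normexp and -0.73 with the authors' values.

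In each of these populations 4 of the 8 members had no overlap and lay lower with DOX, Gbp2, Gbp2b, Gbp3 and Ifi202b, among 16.4% of all genes tested at 5h and 9.62% in d1 BC. The opposite held for Ifi204 at 5h, above background on no array there, and for Gbp6 in d1 BC, with all DOX arrays above (18.6% and 18.9% of all genes), and the mean of Gbp5 at 5h was 1.55 higher with DOX. The Gbp5 direction rested on 1 array, and the difference was -0.62 without FLK1+ 5h DOX replicate 1 and -1.66 within the shared slide. At least 2-fold lower were 2 members at 5h (1.56%) and 2 in d1 BC (3.51%), Gbp3 and Ifi202b in both. The medians over the 8 members were -0.73 and -0.68, against -0.04 and 0.13 over all genes, and after another background correction (normexp) they were 0.04 and 0.03. Gbp7, Ifi204 and Gbp5 were each above background on 2 or fewer of the 4 arrays of either population, and Ifi202b on 1, so their differences there rest on signals near background. Other cell type markers moved in d1 BC and at 5h, in either direction. All 5 blood progenitor markers had lower means with DOX in d1 BC (median -0.51, sums of 5.17 to 6.26 without and 3.19 to 3.42 with). The summed fibroblast feeder level in d1 BC was 33.2 to 40.2 without and 14.1 to 19 with DOX (3 of 6 lower, median 0.03). Its brightest marker, Col1a1, had means of 4.61 without and 1.91 with DOX. At 5h the feeder sums were 9.38 to 11.5 without and 8.52 to 9.03 with DOX. Endothelial sums were higher with DOX. At 5h they were 4.74 to 8.67 without DOX and up to 25.7 with DOX, without overlap (1 of 6 lower, median 0.46). In d1 BC they were 13.1 to 21.1 without and 23.2 to 26.2 with DOX (3 of 6 lower, median 0). Myeloid sums at 5h were 9.23 to 15.1 without and 15.1 to 25.7 with DOX (2 of 7 lower, median 0.62). Those in d1 BC overlapped. The part of any of these markers was not tested.

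Slide by slide, Gbp2, Gbp2b, Gbp3 and Ifi202b were lower with DOX in 11 of 11 pairs of arrays. The members were chosen for their DOX differences on these same arrays. The share of all genes lower in every pair is not given, so the count is a description only. The differences ranged from -7.08 to -0.13 for Gbp2, from -3.86 to -0.46 for Gbp2b, from -3.44 to -0.26 for Gbp3 and from -5.12 to -0.42 for Ifi202b. In 3 of the Ifi202b pairs, 1 each in d1 BC, HE1 and HE2, neither array was above background, so the direction there orders signals near background. Gbp7 was lower in 10 pairs, Ifi204 in 9, Gbp5 in 8 and Gbp6 in 5. Genes with a second probe differed in how well the probes tracked each other over the 27 arrays, with r = 0.98 for Gbp2b, 0.87 for Ifi202b and 0.26 for Gbp6, whose other probe was above background on 4 arrays. The members are close paralogs, and whether a probe also bound transcripts of a neighbouring family gene was not tested.

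**Figure D3:**
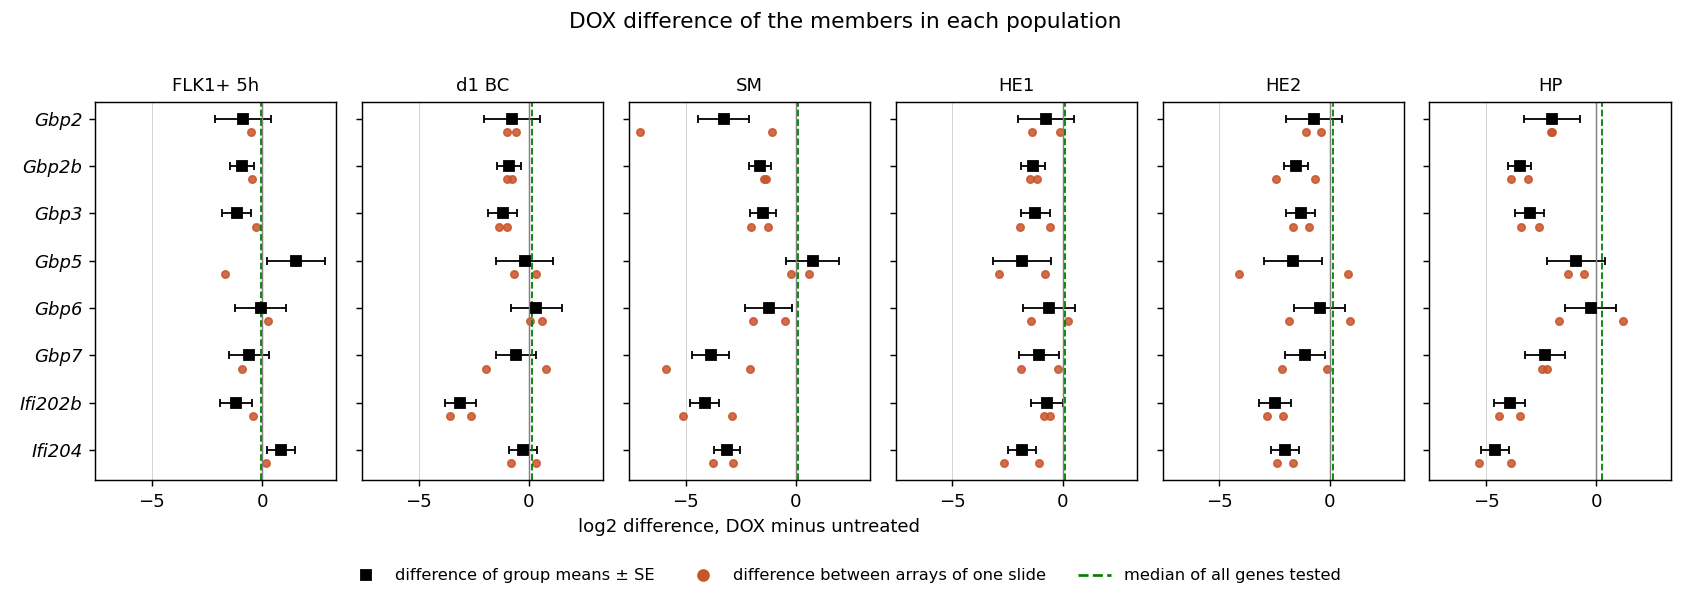
DOX minus untreated log2 difference of the 8 measured members, 1 panel per population. Black squares are differences of group means with the SE of the fit, red points are differences between a DOX and an untreated array of one slide, and the dashed green line is the median of all genes tested. In HP the squares of 6 members lie between -4.6 and -2.04, against a median of all genes of 0.25.

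Differences between populations were tested on the mean of all untreated and DOX arrays of each population. These means include the DOX arrays on which the members were chosen. A DOX difference that is larger in one population therefore enters the comparison. The 8 comparisons share arrays with each other, and a gene is called where its adjusted p was under 0.05 and the difference at least 2-fold. From FLK1+ cells to 5h of blast culture Gbp2b rose by 3.42 on the log2 scale (SE 0.47, limma adjusted p = 0.000488), as the only 1 of 4 members tested that was called, against 3.92% of all genes tested. All 4 of its 5h arrays were above both FLK1+ arrays. The call held with any of the 6 arrays left out, and within the slide that held both populations the difference was 3.32. Gbp2 (1.77, adjusted p = 0.507) and Gbp3 (1.94, adjusted p = 0.0687) did not pass, with every 5h array above every FLK1+ array for both. Gbp3 passed with the slide or the replicate number as a block, after normexp and on untreated arrays only. From 5h to d1 BC Gbp2b fell by 1.38 (SE 0.38, limma adjusted p = 0.0432), 1 of 4 members tested and 4.99% of all genes, and it was lower in 3 of 3 same-slide differences. It did not pass with the slide as a block (-1.14, adjusted p = 0.106) or on untreated arrays only (-1.4, adjusted p = 0.312). That call was lost without any 1 of 7 of the 8 arrays (all but d1 BC untreated replicate 1), with adjusted p from 0.0573 to 0.256.

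In HE1 against d1 BC 4 of 6 members tested were called, 3 of them lower, where 12.7% of all genes were called. Gbp2b was lower by 3.91 on the log2 scale (SE 0.38, adjusted p = 4.53e-06), a 15-fold difference that held with any 1 array left out. HE1 DOX replicate 1 was not above background for Gbp2b, so this call, like that against SM, could not be tested where every array of a group had to be above background, although it still passed without that array. Gbp2 was lower, with a difference of -3.05 (SE 0.9, adjusted p = 0.0313), and so was Gbp3, with -1.61 (SE 0.47, adjusted p = 0.0289). For Gbp7 the measured difference was 2.76, with all 4 HE1 arrays above all 4 d1 BC arrays. Gbp7 was above background on 2 of the 4 d1 BC arrays and could not be tested where both populations had to be above background, so its call carries no weight here, and the difference was 1.39 after normexp and 0.99 with the authors' values. No slide held both populations. With the slide as a block only Gbp2b was called, and the Gbp2 difference turned to 0.77 (limma adjusted p = 0.818). On untreated arrays only, Gbp2b alone was called too. There Gbp2 (-3.05, adjusted p = 0.217) and Gbp3 (-1.57, adjusted p = 0.223) did not pass. The Gbp2 call was also lost without any 1 of the 2 untreated d1 BC arrays, the 2 untreated HE1 arrays, d1 BC DOX replicate 2 or HE1 DOX replicate 1 (adjusted p from 0.0547 to 0.0917). That of Gbp3 was lost without either untreated d1 BC array, d1 BC DOX replicate 2 or HE1 DOX replicate 1 (0.0529 to 0.14).

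Ifi202b was the only 1 of 7 members called between SM and d1 BC, against 1.39% of all genes, and the only 1 of 8 called between HP and HE2, against 0.284%. It was above background on 1 of the 4 d1 BC arrays and on 1 of the 4 HE2 arrays, entered both tests through the brighter population, and could not be tested where both had to be above background. These calls therefore carry no weight, and the differences are given as measured. In SM the mean was 2.55 above that in d1 BC, or 0.98 after normexp and 1.02 with the authors' values. In HP it was 2.87 above that in HE2, or 1.3 after normexp. Between HE2 and HE1 0 of 6 members were called by limma (5.85% of all genes), 1 had an unadjusted p under 0.05, and their differences ranged from -1.51 for Gbp2 to 0.36 for Gbp7. With the slide as a block Gbp3 was called.

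Between SM and HP, 3 members were higher in SM. Of 8 members tested 4 were called, where 14.7% of all genes were. Higher in SM were Gbp2 by 3.92 (SE 0.85, adjusted p = 0.00277), Gbp2b by 2.83 (SE 0.36, adjusted p = 1.69e-05) and Gbp3 by 2.46 (SE 0.44, adjusted p = 0.000532). Each was higher in SM in 3 of 3 same-slide differences, by 1.53 to 2.76, 0.8 to 3.29 and 0.87 to 3.04. Without SM replicate 1 the Gbp2 difference was 2.56 (adjusted p = 4.18e-05), and these 3 calls held with any 1 of the 9 arrays left out. The Gbp2b difference was 1.67 after normexp and 1.73 on untreated arrays only, and passed in both. On untreated arrays only, Gbp3 did not pass (1.55, adjusted p = 0.143). For Ifi202b the measured difference was -1.83, or -1.06 after normexp, with the SM mean below that in HP. SM DOX replicate 2 was not above background, without it the difference was -0.86 (adjusted p = 0.155), and the call could not be tested where both populations had to be above background, so it carries no weight here. Gbp7 (-1.2, adjusted p = 0.232) and Ifi204 (-0.97, adjusted p = 0.157) did not pass, although Ifi204 did on untreated arrays only and without SM replicate 2 or either HP DOX array. Against HE1, Gbp2 was higher in SM by 3.1 (SE 0.85, limma adjusted p = 0.0431) and Gbp2b by 3.1 (SE 0.36, adjusted p = 0.000342), 2 of 7 members tested against 4.59% of all genes. With the slide as a block the Gbp2 difference was 1.49 (adjusted p = 0.295), and on untreated arrays only 4.02 (adjusted p = 0.126). Gbp2 passed in neither, and Gbp2b passed in both. The Gbp2 difference was 1.74 (adjusted p = 0.0104) without SM replicate 1, and its call was lost without any 1 of the 4 HE1 arrays or SM replicate 3 (0.0589 to 0.155).

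**Figure D4:**
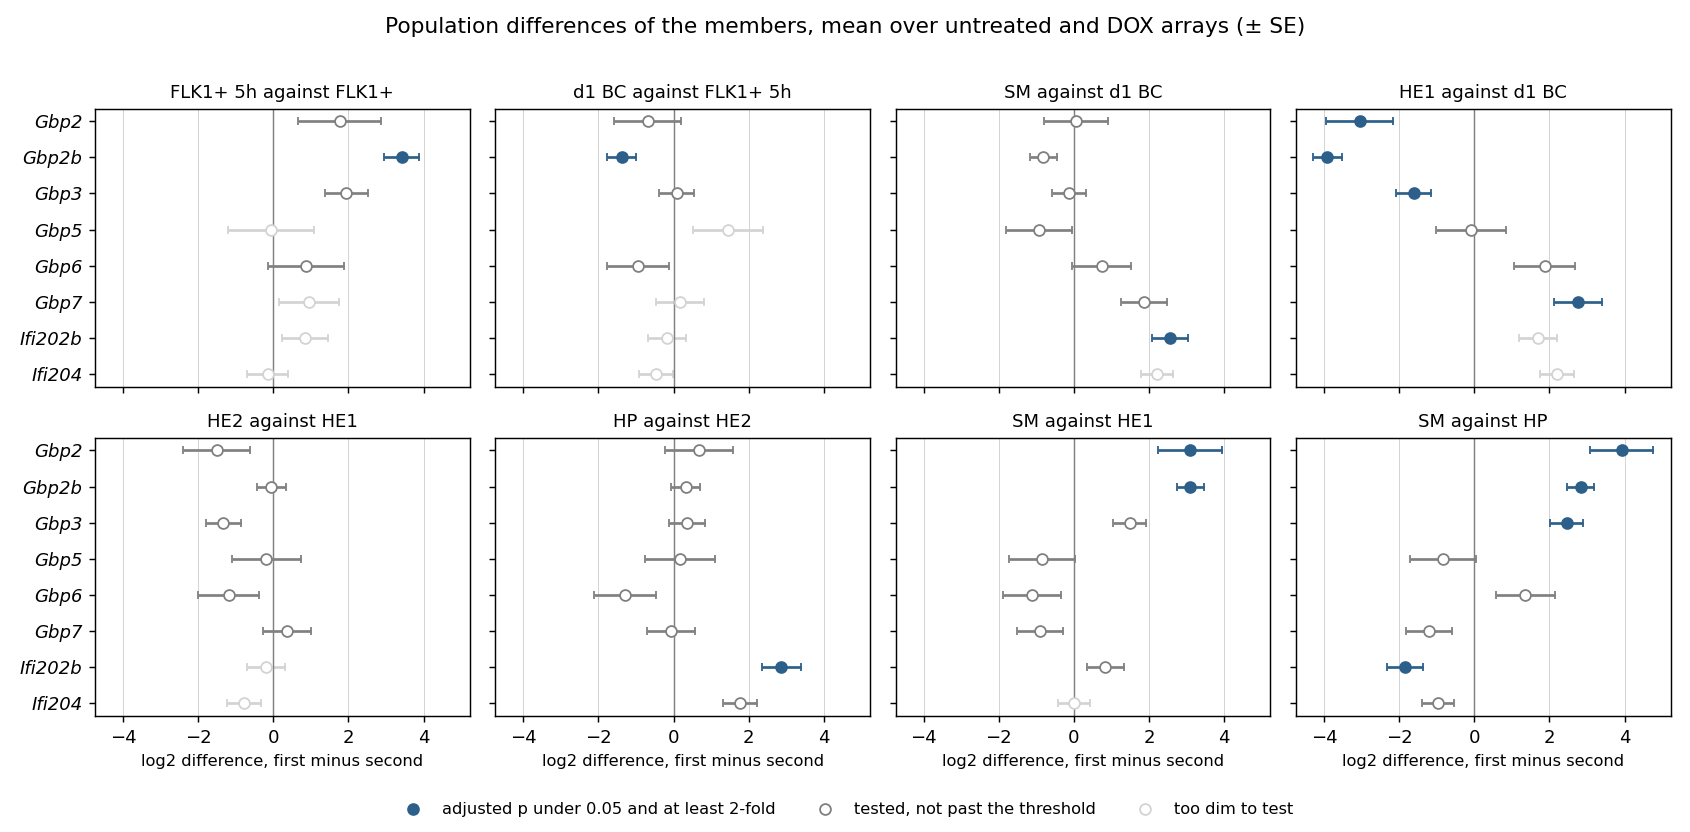
Differences of the 8 measured members between populations, 1 panel per comparison. The x axis is the log2 difference, first minus second named, of means over all untreated and DOX arrays, with its SE; filled points passed adjusted p under 0.05 and 2-fold, open grey points did not, and pale points were too dim to test. Gbp2, Gbp2b and Gbp3 lie to the right in SM against HP and to the left in HE1 against d1 BC, and Ifi202b lies on the other side of 0 in both.

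Over the 27 arrays Gbp2 tracked Gbp2b (r = 0.85) and Gbp3 (r = 0.82), and Gbp2b tracked Gbp3 (r = 0.86). Gbp7, whose gene is next to that of Gbp3, tracked Ifi202b (r = 0.78) and Ifi204 (r = 0.77) rather than Gbp2 (r = -0.37), and the HIN-200 pair tracked each other (r = 0.82). These correlations describe arrays that share slides, populations and scaling, and some of them were near background, so no p is given. They include the DOX arrays on which the members were chosen, so part of them is built in by that choice. Over the 15 untreated arrays alone, an alternative chosen after seeing the data, r was 0.76 for Gbp2 with Gbp2b, 0.72 for Gbp2 with Gbp3, 0.78 for Gbp2b with Gbp3, 0.82 for Gbp7 with Ifi202b, 0.86 for Gbp7 with Ifi204 and 0.85 for the HIN-200 pair. Of 16361 genes searched, those most like the mean of the GBP members were S100a6 (r = 0.85), Olfr1383 (0.8), Lgals1 (0.8), Axl (0.79) and Hspa1a (0.78). Those most like the HIN-200 mean were Ifit1 (r = 0.92), Rtp4 (0.89), Ifit3b (0.86), Mmp19 (0.84) and Cblif (0.83). Over untreated arrays alone the first 5 had r of 0.66 to 0.75 and the second 5 of 0.8 to 0.94. Ifit1 and Ifit3b belong to the family of interferon-induced proteins with tetratricopeptide repeats, and Rtp4 is a known interferon target.

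Interferon pathway genes outside the members were compared with and without DOX over a list of 105 genes, 97 of which were on the array. In HP 66 of 86 tested were lower and 20 higher, and 1 passed the test, lower (limma, adjusted p under 0.05 and at least 2-fold). That gene was Ifit1, an antiviral protein that binds foreign RNA. Its arrays read -0.79 and -0.68 without DOX and -4.5 and -5.4, not above background, with DOX. It was at least 13.9-fold lower on this scale (SE 0.73 in log2 units, limma adjusted p = 0.0405). The call was lost without either untreated HP array or either HP DOX array, with adjusted p from 0.0652 to 0.496, so the arrays left in decide it. Nor did it pass after normexp (-1.78, adjusted p = 0.134), after quantile normalization (0.0679), with no filter (0.0675) or with the replicate block (0.101). The normexp difference was also smaller than the bound given above. Ifit1 entered the test through the untreated arrays and could not be tested where both groups had to be above background. The call therefore carries no weight here. In the other 5 populations 0 pathway genes passed the test in either direction, and an unadjusted p under 0.05 was reached by 13 in HE2, 5 in HE1, 11 in SM, 3 in d1 BC and 1 at 5h, against 29 in HP. The share of all genes with an unadjusted p under 0.05 is not given here, so these counts cannot be set against all genes. Of all genes tested, 0.0398% were called, by adjusted p and fold, in either direction in HP, 0.021% in SM, 0.00835% in d1 BC, 0.00421% at 5h and 0 in HE1 and HE2.

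By role, the targets of type I interferon stood lowest in HP. All 26 on the array were tested there, 25 were lower with DOX, 21 without overlap (80.8%, against 12.5% of all genes tested) and 18 at least 2-fold (69.2%, against 7.27%). Their median was -2.09, and 15 had an unadjusted p under 0.05, a threshold for which no share of all genes is given. Medians of the 26 in the other populations were -0.72 in SM, -0.76 in HE2, -0.29 in HE1, 0.28 in d1 BC and -0.06 at 5h. Among ligands, Ifnb1, the gene of interferon beta, read -1.99 and -1.27 without DOX in HP and was not above background with DOX. It was at least 7.28-fold lower, but did not pass (adjusted p = 0.372). Ifna2 was 1.67 higher (adjusted p = 0.998), and Ifng, the gene of interferon gamma, was above background on no HP array. The receptors did not pass either, with Ifnar1 at -0.08 (adjusted p = 0.998) and Ifngr1 at -0.83 (adjusted p = 0.998) in HP. Of the IRF factors, Irf1 differed by -0.65 (adjusted p = 0.998). Over the 6 populations Irf1 lay between -0.65 and 0.62, Ifngr1 between -0.83 and 0.72 and Ifnar1 between -0.49 and 0.71.

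The interferon gamma inducible GTPases and antigen processing genes had both the lowest and the highest differences of the list in HP. Cxcl10, a chemokine, read -0.62 and 1.19 without and -6.14 (not above background) and -2.86 with DOX, a log2 difference of -4.79 (SE 1.23, adjusted p = 0.296), and Tap1, a peptide transporter subunit, was at least 6.7-fold lower (adjusted p = 0.488). Ciita, the regulator of MHC class II genes, was 2.17 higher (adjusted p = 0.998) and Cxcl9 1.2 higher (adjusted p = 0.998). Over the 17 genes of that group 12 were lower and 5 higher, with a median of -0.41. Of the 4 GBP genes that are not members and are on the array 3 were tested in HP, where Gbp4 (-1.57) and Gbp9 (-0.42) had lower and Gbp10 (0.92) higher means with DOX, none past the test, and in the 6 populations their median lay between -0.22 and 0.43 over the 4. The 7 other HIN-200 and PYHIN genes on the array had medians from -0.57 in SM to 1.26 at 5h, and 3 or fewer of them could be tested in any population.

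Outside HP the lowest and highest among the pathway genes bright enough to test, none of which passed, were as follows. Some genes too dim to test lay beyond them, such as Ifi44 in SM (-3.16), Ciita in d1 BC (-2.49) and Tgtp1 at 5h (2.52), which were named after their values were seen. In SM Ifit1 (-2.86, adjusted p = 0.406), Rsad2 (-2.77, 0.575, at least 3.6-fold lower) and Ciita (-2.61, 0.996) were lowest and Ifi209 (2.06, 0.996) highest. In HE1 Ifit1 (-3.34, at least 2.09-fold lower), Oasl2 (-2.89) and Cxcl10 (-2.22) were lowest and Ciita (1.99) highest, each at adjusted p = 1. In HE2 Oas1a (-3.01), Oas2 (-2.99, at least 5.6-fold lower) and Zbp1 (-2.69, at least 3.32-fold lower) were lowest, each at adjusted p = 0.497, and Tap2 (1.27, 0.518) highest. Before the sort Ifnlr1 was lowest at 5h (-1.12) and Gbp10 highest (2.43, adjusted p = 0.924, resting on 1 untreated array not above background), and in d1 BC Xaf1 was lowest (-1.34) and Ifnk highest (2.13, adjusted p = 1, at least 1.37-fold higher). A bound is given where the dimmer group was above background on no array, and the measured value then ranks a signal near background. Over the genes on the array the pathway median was lowest in HP (-0.65), followed by SM (-0.54), HE2 (-0.35), HE1 (-0.03), FLK1+ 5h (0.02) and d1 BC (0.09). The values given above for myeloid markers apply here too, and their part in these differences was not tested.

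**Figure D5:**
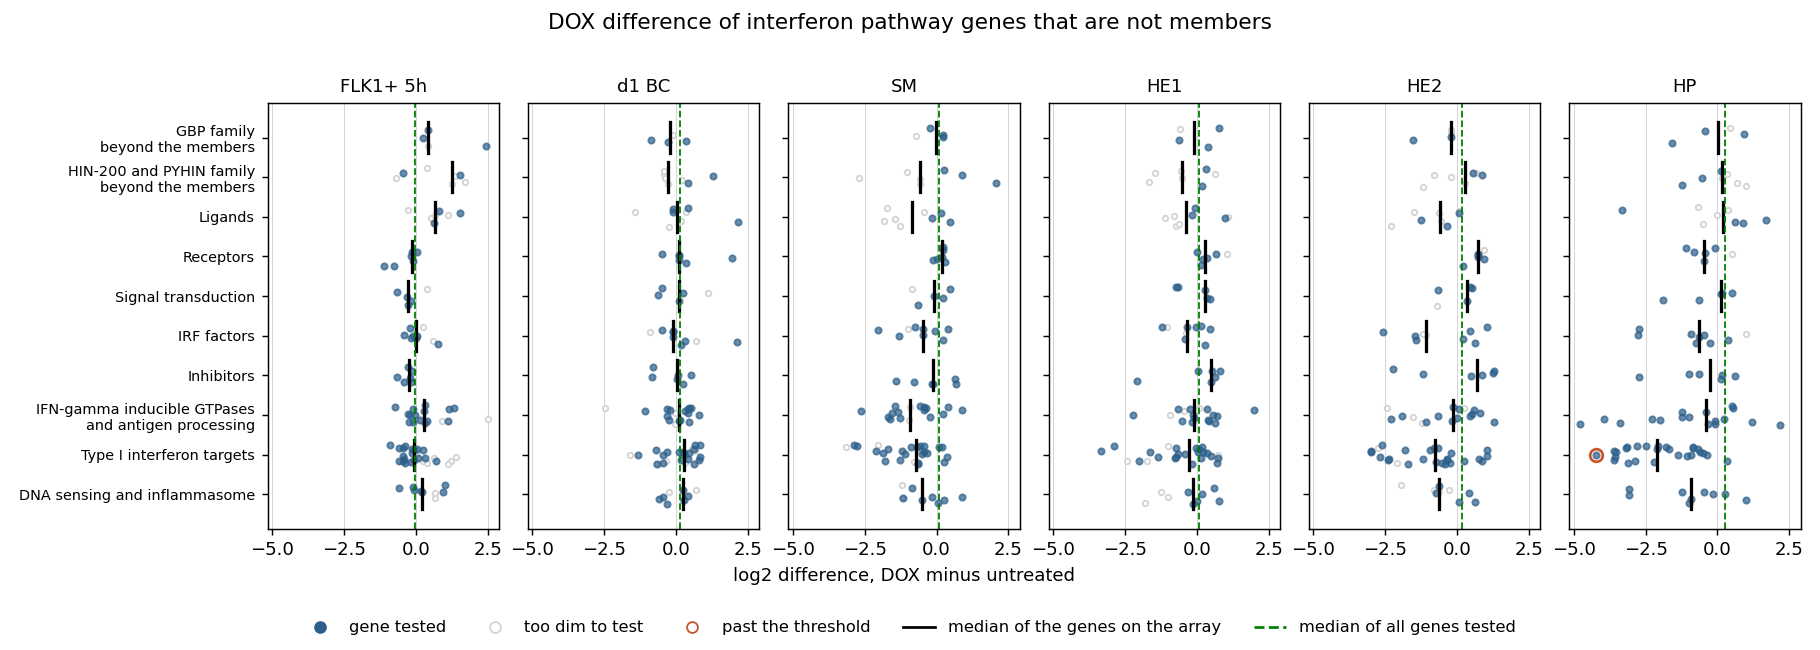
DOX minus untreated log2 difference of the 97 interferon pathway genes on the array that are not members, by role, 1 panel per population. Filled points were tested, pale open points were too dim to test, the ringed point passed the test, black bars are medians of the genes on the array in a list and the dashed green line is the median of all genes tested. The type I interferon targets in HP have a median of -2.09, and Ifit1 at -4.22 is the ringed point. In HP Ifit1 was above background on the untreated arrays only, so its call carries no weight.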

How the data were processed

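RNA from 27 samples was hybridised to single-colour Agilent arrays, read by the submitters with Agilent Feature Extraction (10.7.1.1 in their processing notes, 10.7.3.1 in the file headers). The deposited intensity of each spot is the scanner's background-corrected signal, with flags for spots well above background. The deposited log2 values are the authors' processed values of the same arrays (column medians 5.977 to 6.002; the notes name limma). Their exact scaling is not given in the sources used here, and they were used as an alternative only.

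Here log2 of the processed signal minus the 75th percentile of each array was taken for 55681 non-control probes, and spots of one probe were averaged. Genes were named through the RefSeq accession, and of several probes the one with the highest mean over 27 arrays was kept. A group-means model over all 27 arrays (13 groups, 14 residual degrees of freedom) was fitted with limma 3.58.1 in R 4.3.3 to 28317 genes, with Benjamini-Hochberg adjustment over those genes whose probe exceeded background on each array of 1 or more of the compared groups. Called means adjusted p under 0.05 and at least 2-fold. A fold given as "at least" sets the bright group's mean against the lowest signal well above background on the dim group's arrays. It holds on this scale only, and differences after normexp or with the authors' values can be smaller. Sequences were read with Python 3.11.15. The number of arrays limits the precision. On simulated data the DOX comparison in HP called 0, 8, 38 and 70% of genes set to change by 1, 2, 3 and 4 on the log2 scale (50 genes each), with 4 of 24899 unchanged genes called.

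The members, the interferon pathway list, the marker lists and the tests were chosen with earlier results of these data known. Of the pathway genes, every called gene, the 3 lowest and 3 highest in a comparison, and Irf1, Ifng, Ifnb1, Ifngr1 and Ifnar1 could be named; 1 further item of this rule is not reported here. Alternatives were normexp (offset 50), quantile and median scaling, the authors' values, the mean of all probes, slide or replicate number as a block, other filters on dim probes, untreated arrays only, and each array left out in turn.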

Additional observations from a re-analysis of the deposited data

Results flagged for a closer look

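For 11 genes the DOX arrays lay wholly above the untreated arrays in one population and wholly below them in another. They were among 38 members and named pathway genes, several of which are named for lying at an end of the list, and 21.1% of the 26098 genes tested in 2 or more populations did the same. The difference between the populations was not tested for any of the 11. Among the members this held for Gbp6, with a log2 DOX difference of 0.33 in d1 BC and -1.24 in SM, 1.57 apart. Of the receptors, Ifnlr1 stood at 1.95 in d1 BC and -1.12 at 5h (3.07 apart as measured), but untreated d1 BC replicate 2 read -6.44 and was not above background. Il10rb stood at 0.93 in HE2 and -1.1 in HP (2.03 apart), and Ifnar1 at 0.71 in HE2 and -0.49 in d1 BC (1.19 apart). Ifngr1 stood at 0.72 in HE2 and -0.83 in HP (1.55 apart). Other GBP genes were Gbp10 and Gbp4. Gbp10 stood at 2.43 at 5h and -1.53 in HE2 (3.96 apart as measured), but the 5h value rested on untreated replicate 1, which read -6.33, was not above background and was alone on its slide, while the other untreated array read -2.62 and the DOX arrays -2.61 and -1.49. Gbp4 stood at 0.76 in HE1 and -1.57 in HP (2.33 apart as measured), with HP DOX replicate 1 (-5.26) not above background. Irf8, an interferon regulatory factor of myeloid cells, stood at 2.11 in d1 BC and -2.74 in HP (4.85 apart as measured), but neither untreated d1 BC array was above background, and it was at least 3.01-fold higher with DOX there. The class II regulator Ciita stood at 2.17 in HP and -2.61 in SM (4.78 apart as measured), with SM DOX replicate 2 (-5.55) not above background. The antiviral gene Oas1a stood at 0.41 in d1 BC and -3.61 in HP (4.02 apart), and the peptide transporter gene Tap2 at 1.27 in HE2 and -0.98 in HP (2.25 apart).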

How the results depend on the processing

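The median DOX difference of the members was below 0 in every population and setting except under normexp at 5h (0.04) and in d1 BC (0.03). It moved by more than the spread between replicates under normexp to -1.3 in SM, -0.7 in HE2 and -1.34 in HP, with the authors' values to -2.1 in HP, -0.59 in HE2, -0.58 in HE1 and -1.46 in SM, under median scaling to -1.38 at 5h, and on slide 3 alone to -1.66 in SM. Leaving out single arrays gave -1.01 to -0.33 at 5h, -1.01 to -0.65 in d1 BC, -3.02 to -2.72 in HP, -1.89 to -0.95 in HE2, -1.44 to -1.02 in HE1 and -2.64 to -1.42 in SM. Median scaling itself shifted the median of all genes by -0.64 at 5h, -0.3 in HP, 0.46 in HE2, 0.35 in SM and 0.28 in HE1.

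The pathway median moved to -0.62 at 5h and 0.11 in HE2 under median scaling, and to -0.13 in SM with the authors' values. Pathway genes called in HP were 6 under normexp, 4 under quantile normalization, 2 under median scaling, 12 with the authors' values, 3 with all probes averaged, 8 with the slide as a block, and 0 with no filter or with genes above background in both groups. Leaving out single arrays gave 0 to 1 in HP and 0 to 1 in SM. Over all genes 10 were called in HP, against 44 under normexp, 35 under quantile normalization, 30 under median scaling, 128 with the authors' values and 51 with the slide as a block. Causes were not tested.

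Members called between populations changed as follows. For 5h against FLK1+ they were 2 under normexp, the slide block, the replicate block and untreated arrays only, Gbp3 being added each time. For d1 BC against 5h they were 0 under median scaling, the probe mean, the slide block, both other filters and untreated arrays only. For SM against d1 BC they were 0 under normexp, median scaling, the authors' values, the stricter filter and untreated arrays only, and 2 with no filter. For HE1 against d1 BC they were 1 under the slide block and untreated arrays only, 2 under the stricter filter, 3 with the authors' values and 5 under normexp and with no filter, and for HE2 against HE1 1 under the slide block. For HP against HE2 they were 0 under normexp, the stricter filter and untreated arrays only, and 2 under quantile normalization and with the authors' values. For SM against HE1 they were 1 under median scaling, the slide block, no filter and untreated arrays only, 0 under the stricter filter, and 3 under normexp, the probe mean, the replicate block and with the authors' values. For SM against HP they were 3 under the stricter filter, Ifi202b being lost. Single arrays left out gave 1 to 2 (5h against FLK1+), 0 to 1 (d1 BC against 5h), 0 to 2 (SM against d1 BC), 2 to 4 (HE1 against d1 BC), 0 to 1 (HE2 against HE1), 0 to 2 (HP against HE2), 1 to 3 (SM against HE1) and 3 to 5 (SM against HP). The difference of Gbp2 between HE1 and d1 BC reversed to 0.77 under the slide block.

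Same-numbered untreated and DOX arrays, 11 pairs of which also share a slide, deviated together in 5 of 6 populations (r of 0.26 to 0.6) but not at 5h (-0.15), so the numbers were not taken to pair the samples throughout. With the replicate block 2 genes were called in HP over all genes, and 1 pathway gene, Oas1a in place of Ifit1. With the numbers of the 5h DOX arrays crossed, an alternative chosen after seeing the data, 27 genes were called at 5h, against 0 with the uncrossed block and 1 without a block.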
